A study of Mus musculus with 20 samples.

Results

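Prss55, Lgr6, Krt18 and Unc13c are protein-coding genes with low levels in vehicle-treated mouse hindlimb muscle. Their mean levels were many-fold higher in muscle labelled as lacking the clock transcription factor BMAL1, except for Krt18 in trained muscle. There the knockout mean of Krt18 was 2.24 times the vehicle mean, and the groups overlapped. The genes are 4 of the 21844 in the count table and were picked for their strong rise in the libraries labelled knockout. Their knockout effects are therefore given as a description with no test. RNA from whole muscle was sequenced in 20 libraries, 5 in each of 4 groups, numbered 1 to 5 by the labels. No label says that they came from separate animals, so p-values measure the spread between these samples, which may be technical. Every mouse carried a Bmal1 gene flanked by Cre target sites together with a Cre transgene, the genotype written as Cre+:iMSBmal1 fl/fl in the labels of all groups. Vehicle sedentary mice received vehicle and no exercise. Knockout sedentary mice, labelled iMSBmal1KO and described as lacking Bmal1 in skeletal muscle, did no exercise. Vehicle trained and knockout trained mice ran on a treadmill daily for 6 weeks. Muscle was collected 47 hours after the last bout per the series design, and 48 hours per the sample labels. The labels name the gastrocnemius in one field and the tibialis anterior in another. The promoter that drives Cre, the agent that induces it, and the age and sex of the mice are not given in the sources used here.

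BMAL1 pairs with CLOCK and binds E-box DNA to switch on the Period and Cryptochrome genes, whose products then repress the pair. It also drives the REV-ERB repressors, which silence genes through ROR elements. Prss55 encodes a trypsin-like serine protease known from the testis, where it is needed for male fertility. Lgr6 encodes a receptor for R-spondins, secreted proteins that strengthen Wnt signalling, and marks stem cells of the skin. Unc13c encodes Munc13-3, a priming factor for synaptic vesicles known from the cerebellum. Krt18 encodes keratin 18, an intermediate filament protein of simple epithelia that assembles with keratin 8.

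The 4 genes lie on different chromosomes in GENCODE M21, an annotation of the GRCm38 mouse genome. Prss55 spans bases 64075438 to 64090162 of chromosome 14 on the minus strand, Lgr6 bases 134983301 to 135105276 of chromosome 1 on the minus strand, and Unc13c bases 73479422 to 73968966 of chromosome 9 on the minus strand. Krt18 spans bases 102028180 to 102032027 of chromosome 15 on the plus strand. The counts were assigned to whole genes, so no exon or UTR can be singled out.

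Since the genes were high in the same samples, their promoters were searched on both strands for CACGTG (the E-box of CLOCK and BMAL1), CAGCTG (an E-box of myogenic factors) and TAGGTCA (the core of the ROR element). The windows ran from 250 bases before to 50 bases after the annotated start in RefSeq's GRCm38.p6 table, which held 3 of the 4 genes. The 250 bases before the start are given for Lgr6 and Unc13c, and 214 for Krt18, which stop where the GENCODE gene begins. They are written along each gene's own strand with the matches in capitals. They lie at chr15:102027966-102028179 on the plus strand for Krt18, at chr1:135105277-135105526 on the minus strand for Lgr6, and at chr9:73969038-73969287 on the minus strand for Unc13c.
Krt18: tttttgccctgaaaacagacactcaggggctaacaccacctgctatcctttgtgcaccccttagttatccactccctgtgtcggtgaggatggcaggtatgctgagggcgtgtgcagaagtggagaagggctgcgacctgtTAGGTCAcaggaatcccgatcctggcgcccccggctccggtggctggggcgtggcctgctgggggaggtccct
Lgr6: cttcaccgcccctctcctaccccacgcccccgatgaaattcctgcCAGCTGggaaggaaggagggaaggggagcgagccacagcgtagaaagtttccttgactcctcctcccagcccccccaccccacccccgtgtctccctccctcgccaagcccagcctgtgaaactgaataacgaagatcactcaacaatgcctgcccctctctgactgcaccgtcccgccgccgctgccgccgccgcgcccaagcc
Unc13c: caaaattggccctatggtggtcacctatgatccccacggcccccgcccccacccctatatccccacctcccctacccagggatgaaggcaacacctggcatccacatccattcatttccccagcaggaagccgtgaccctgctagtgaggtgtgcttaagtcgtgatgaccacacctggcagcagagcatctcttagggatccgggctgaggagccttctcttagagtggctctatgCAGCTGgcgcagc

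None of the 3 windows held CACGTG, a motif found in 7.15% of all 32851 promoter windows of this length. The Krt18 window held TAGGTCA once, beginning at position -109 from the start, and 2.61% of all windows held it. The Lgr6 and Unc13c windows each held CAGCTG once, at -205 and -13, against 16.3% of all windows. No match overlapped another. The windows differed in composition. Lgr6 had 67.7% G and C and 24 CG pairs, Krt18 61.3% and 17, and Unc13c 59.3% and 6, beside medians of 52.7% and 7 over all windows. These matches are letters in a sequence and no measure of binding.

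Total counts per library lay between 10610331 and 19153522. At high counts, the squared differences between knockout trained libraries 1 and 4 were 2.38 times those of sampling noise. Between libraries 3 and 5 they were 1.755 times, and every other pair of libraries had at least 6.378 times. Each of these 2 close pairs was counted as 1 sample, which leaves n = 3 in that group. Levels are CPM (depth-normalized counts, scaled by TMM factors), and a pair counts as the mean of its libraries. Arntl, the table's symbol for Bmal1, had no lower level under the knockout label, at 12.5 ± 2.96 CPM against 6.66 ± 0.694 in vehicle sedentary muscle (SD, n = 5 each). Its gene-level count does not single out the deleted part, so it does not check the deletion, and every direction here rests on the labels. Vehicle trained library 2 stood apart from its group, with Arntl at 141.8 CPM against 5.96 to 6.91 in the other 4, so values that move without it are given beside the results. The 12 muscle fibre markers summed to between 76460 and 122800 CPM in every sample.

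All 4 genes passed the filter on low counts, and they did so through the libraries labelled knockout. All 10 of these had at least 1 CPM before TMM scaling for each gene, whereas 0 of 10 vehicle libraries did for Prss55, 1 for Lgr6, 2 for Krt18 and 3 for Unc13c. In sedentary muscle the knockout and vehicle samples did not overlap for 4 of 4 genes, all higher in knockout, and the same held for 4.08% of the 14359 genes tested. In trained muscle it held for 3 of 4, the exception being Krt18, and for 5.31% of genes tested. Over both training states, the 8 knockout samples lay above all 10 vehicle samples for Prss55, Lgr6 and Unc13c, and this held for 1.05% of genes tested. The genes were chosen on this contrast, so nothing is read from these shares. In whole muscle, more RNA of a gene per cell and more cells that express it cannot be told apart.

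**Figure D1:**
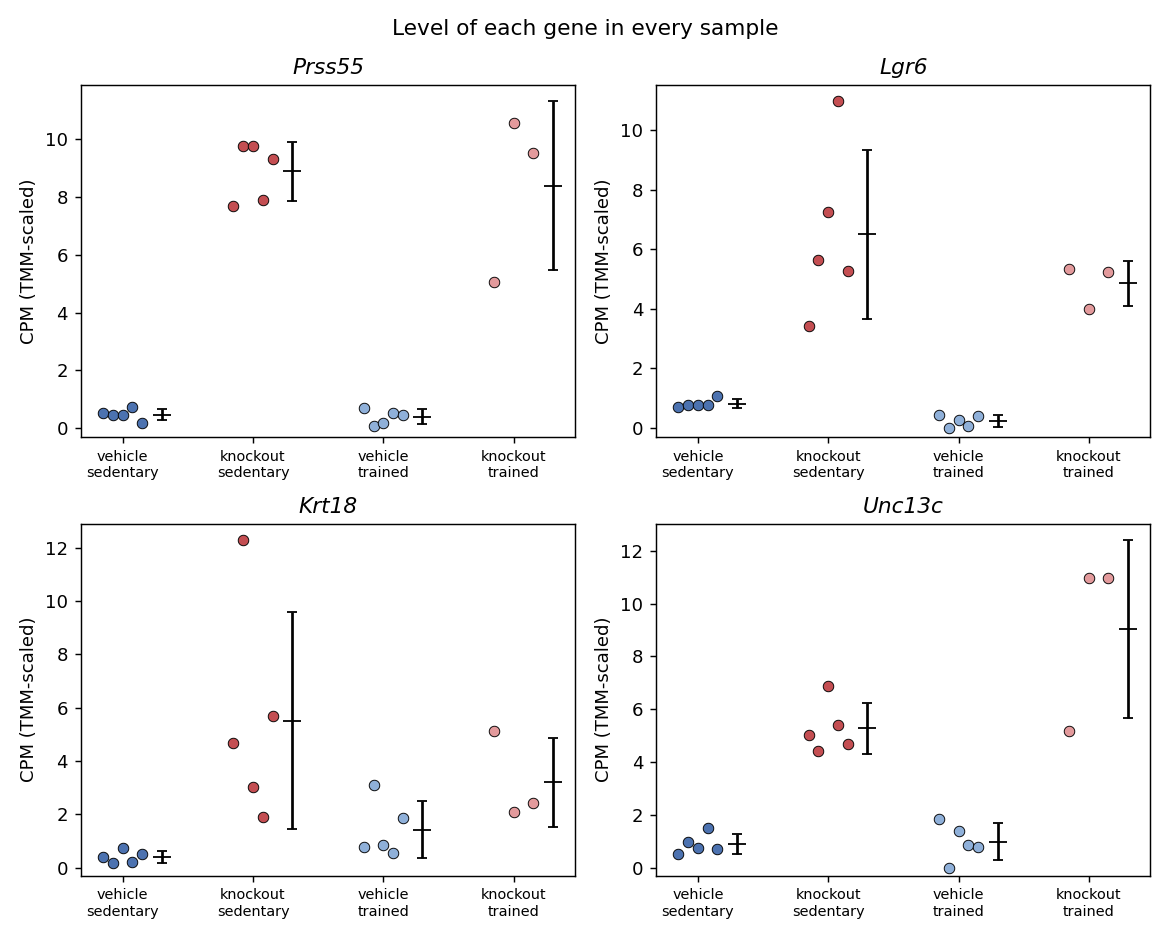
Level of Prss55, Lgr6, Krt18 and Unc13c in CPM (linear axis) in each of the 18 samples of the 4 groups; points are samples and the bar beside them is the mean ± SD (n = 5, 5, 5 and 3). Only Krt18 had a vehicle sample, at 3.12 CPM, above some knockout samples.

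Prss55, the protease gene, had the cleanest separation. Its levels in the 5 vehicle sedentary libraries were 0.542, 0.453, 0.455, 0.722 and 0.193 CPM, which rest on 3 to 13 reads each. In the 5 knockout sedentary libraries they were 7.68, 9.74, 9.76, 7.89 and 9.29 CPM, on 95 to 157 reads. The vehicle trained libraries were at 0.716, 0.0708, 0.199, 0.537 and 0.467 CPM, with library 2 the lowest at 1 read. The knockout trained samples were at 5.07, 10.6 and 9.52 CPM, where the low value is the mean of libraries 1 and 4. The lowest knockout sample was 7.03 times the highest vehicle sample. The log2 change was 4.19 with SE 0.35 in sedentary and 4.34 with SE 0.38 in trained muscle, the third largest rise of 14359 genes in each.

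Prss55 also varied least within the knockout sedentary group, with an SD of 11.4% of its mean, against 18.2% for Unc13c, 43.6% for Lgr6 and 73.5% for Krt18. Within the knockout trained group (n = 3) Lgr6 varied least, at 15.5%, against 34.8% for Prss55, 37.2% for Unc13c and 52.2% for Krt18.

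The genes beside Prss55 were examined because 1 of them shares part of its span. Prss51, another serine protease gene, overlaps Prss55 on the opposite strand without sharing an exon base, and the strand setting of the counting is not given in the sources used here. It had 0 to 1 reads in the vehicle sedentary libraries, 1 to 8 in the knockout sedentary, 0 to 2 in the vehicle trained and 0 to 3 in the knockout trained libraries. Prss55 itself had 48 to 157 reads in the knockout libraries. The next gene past Prss51 is 4930471C04Rik, a long noncoding RNA gene on the strand of Prss55 and 9133 bases upstream of its start. It had 0 reads in all 10 vehicle libraries, at a limit of 3 reads per library that a count of 0 allows. The 5 knockout sedentary libraries had 5, 7, 4, 4 and 4 reads, and the 5 knockout trained libraries had 1, 4, 2, 3 and 0. Knockout and vehicle libraries thus did not overlap in sedentary muscle, while 1 knockout trained library was at 0 like the vehicle libraries. Counted as samples, where that library 5 is averaged with library 3, the lowest knockout trained value was 0.0933 CPM against 0 with vehicle. Non-overlap as higher was seen for 4.08% of genes tested in sedentary and 5.31% in trained muscle.

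Both neighbours fell below the filter on low counts. In edgeR's quasi-likelihood test with no filter (21844 genes), 4930471C04Rik passed for the knockout effect in sedentary muscle (adjusted p = 0.0135) and in trained muscle (adjusted p = 0.0454). Of the 21844 genes, 322 passed in sedentary and 377 in trained muscle in either direction. The calls of 4930471C04Rik rest on at most 7 reads per library. Prss51 did not pass in either (edgeR adjusted p = 0.246 and 0.682). No fold is given for 4930471C04Rik because its vehicle reads are all 0 and its knockout reads are few.

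**Figure D2:**
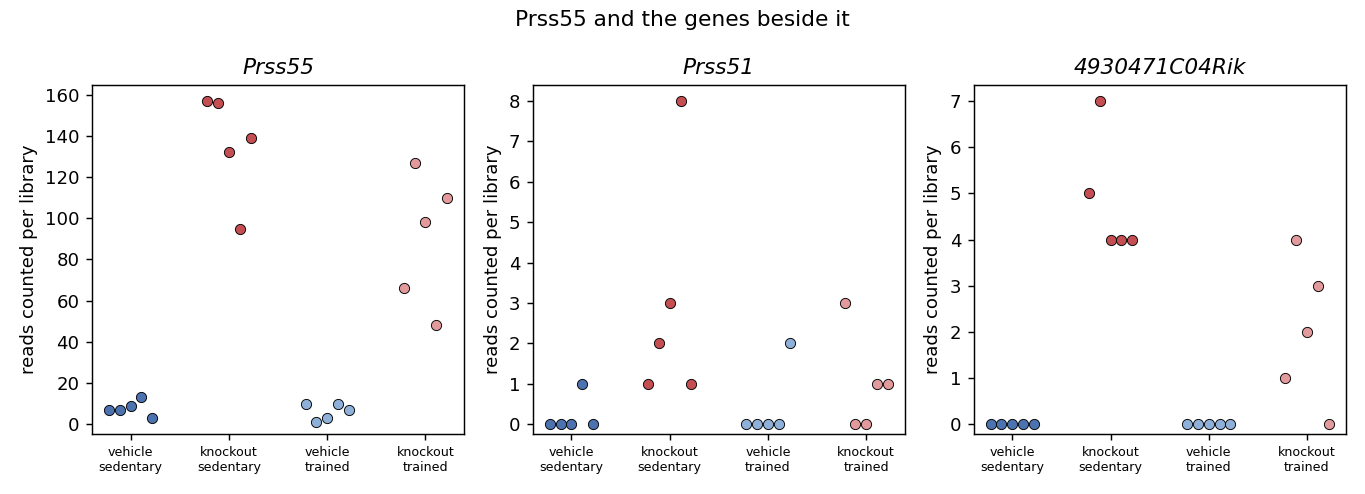
Reads counted per library (linear axes of different range) for Prss55, for Prss51, which overlaps it on the opposite strand, and for 4930471C04Rik, a noncoding gene 9133 bases away; each point is 1 of the 20 libraries. 4930471C04Rik is at 0 in all 10 vehicle libraries and at 4 to 7 reads in the knockout sedentary libraries.

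Of 33 listed serine proteases and their inhibitors, 17 were tested, and 0 passed for the knockout effect in sedentary muscle, where 2.33% of all tested genes passed in either direction (edgeR, adjusted p under 0.05). In trained muscle 2 of 17 passed, both higher, beside 3.29% of all tested genes in either direction and 1.99% as higher. They were Prss23, with a log2 change of 0.62 and SE 0.16, and Hpn, which encodes the membrane protease hepsin, with 0.63 and SE 0.17 (edgeR adjusted p = 0.0405 and 0.0455). In sedentary muscle Prss23 had 0.50, while Hpn went the other way with -0.48 (edgeR adjusted p = 0.0862 and 0.117). The median log2 change of the 17 was 0.24 in sedentary and -0.18 in trained muscle, beside 0.01 and -0.03 over all genes. Without vehicle trained library 2, a setting added after seeing the data, more of all tested genes passed: 3.14% as higher and 3.84% as lower in sedentary muscle, and 5.01% and 3.65% in trained muscle. Of the 17, 1 then passed as higher and 2 as lower in sedentary muscle, and 3 and 1 in trained muscle. Hpn was called in opposite directions, with -0.48 in sedentary and 0.57 in trained muscle (edgeR adjusted p = 0.0327 and 0.0314).

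Lgr6, the R-spondin receptor gene, was low in all vehicle libraries. The vehicle sedentary libraries had 0.697, 0.776, 0.758, 0.777 and 1.09 CPM, on 9 to 17 reads. The vehicle trained libraries had 0.43, 0, 0.266, 0.0537 and 0.4 CPM, on 0 to 6 reads, and library 2 had the 0. Every trained value lay below every sedentary one in vehicle muscle. The knockout sedentary libraries had 3.42, 5.62, 7.24, 10.96 and 5.28 CPM, with library 4 the highest. The knockout trained samples had 5.35, 3.99 and 5.23 CPM, inside the range of the knockout sedentary libraries. The log2 change between knockout and vehicle was 2.96 with SE 0.39 in sedentary muscle and 4.39 with SE 0.48 in trained muscle, ranks 10 and 2 among the rises.

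The larger change of Lgr6 in trained muscle went with the lower vehicle trained values and not with higher knockout trained ones. These vehicle values are also the low side of the rise by which the gene was picked, and it entered the tested set through the knockout libraries, so its training difference in vehicle muscle is a description and no independent test. It was a log2 change of -1.84 with SE 0.50, and the fit over all genes did not call it (edgeR adjusted p = 0.272). Non-overlap in this direction was seen for 0.989% of genes tested. Without vehicle trained library 2 the log2 change was -1.55 (edgeR adjusted p = 0.343). In knockout muscle the training effect was -0.42 with SE 0.39 (edgeR adjusted p = 0.866), and the groups overlapped. The difference between these training effects was 1.42 with SE 0.63 (edgeR adjusted p for the interaction = 0.661), and 1.15 without that library (edgeR adjusted p = 0.447).

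The relatives of Lgr6 did not share its pattern. Lgr4, another R-spondin receptor, had 45.7 ± 2.89 CPM with vehicle and 38.2 ± 2.31 CPM with knockout in sedentary muscle (SD, n = 5 each). This difference of -0.26 on the log2 scale, with SE 0.11, did not pass (edgeR adjusted p = 0.364). Lgr5 had at most 5 reads in any library. Of 45 genes listed for R-spondin and Wnt signalling besides Lgr6, 34 were tested. In sedentary muscle 0 passed as higher and 3 as lower in knockout (edgeR). Over all tested genes, 1.02% passed as higher and 1.31% as lower. In trained muscle 0 passed as higher and 2 as lower, beside 1.99% and 1.3% of all tested genes.

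The genes that fell were Dkk3, Fzd4 and Axin2. Dkk3, a secreted protein of the Dickkopf family, went from 24.6 ± 5.58 to 8.09 ± 1.84 CPM in sedentary muscle (SD, n = 5 each). Its log2 change was -1.61, SE 0.23 (edgeR adjusted p = 0.000416). In trained muscle it was -2.09, SE 0.29 (edgeR adjusted p = 0.000419). Fzd4, a Wnt receptor, fell by 0.63 on the log2 scale in sedentary and by 0.59 in trained muscle (edgeR adjusted p = 0.00475 and 0.0246). Axin2, a widely used target gene of Wnt signalling, went from 11.3 ± 3.42 to 6.04 ± 0.593 CPM in sedentary muscle (SD, n = 5 each). The log2 change was -0.90, SE 0.20 (edgeR adjusted p = 0.0135). In trained muscle it was -0.56 and did not pass (edgeR adjusted p = 0.208). The median over the 34 was -0.06 in sedentary and -0.24 in trained muscle. The calls were again these 3 genes in sedentary muscle, and Dkk3 and Fzd4 in trained muscle, without vehicle trained library 2. In that setting 3.84% of all tested genes passed as lower in sedentary and 3.65% in trained muscle.

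Unc13c, the vesicle priming gene, was higher in every knockout sample than in any vehicle sample. The vehicle sedentary libraries had 0.542, 0.971, 0.758, 1.5 and 0.706 CPM, and the knockout sedentary libraries had 5.04, 4.43, 6.87, 5.4 and 4.68 CPM. The vehicle trained libraries had 1.86, 0, 1.4, 0.859 and 0.801 CPM, with library 2 again at 0 reads. The knockout trained samples split, with libraries 1 and 4 at 5.16 CPM inside the knockout sedentary range and the other 2 samples at 10.98 CPM each, above it. Libraries 3 and 5, counted as 1 sample, had 13.2 and 8.82 CPM. The log2 change between knockout and vehicle was 2.53 with SE 0.46 in sedentary and 3.18 with SE 0.49 in trained muscle, ranks 17 and 5 among the rises.

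Training gave Unc13c a log2 change of 0.76 with SE 0.45 in knockout muscle and 0.11 with SE 0.50 in vehicle muscle, and neither passed (edgeR adjusted p = 0.661 and 0.922). The interaction was 0.65 with SE 0.68 (edgeR adjusted p = 0.808). Without vehicle trained library 2, where Unc13c has 0 reads, the change in vehicle muscle was 0.42 and the interaction 0.35 (edgeR adjusted p = 0.592 and 0.824).

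In GENCODE M21 Unc13c overlaps 4 annotated genes on its own strand, none of which shares an exon base with it, and they are not analysed here. None of its relatives Unc13a, Unc13b and Unc13d passed for the knockout effect in either training state. In sedentary muscle Unc13a had 2.98 ± 0.647 CPM with vehicle and 2.73 ± 1.18 CPM with knockout (SD, n = 5 each). Unc13b had 5.06 ± 1.44 and 4.565 ± 0.403 CPM (SD, n = 5 each). The edgeR adjusted p was 0.999 for Unc13a and 0.979 for Unc13b. Of 28 listed genes of vesicle priming and membrane fusion besides Unc13c, 22 were tested. Only Syt11, a synaptotagmin, passed in sedentary muscle, higher with a log2 change of 0.38 and SE 0.10 (edgeR adjusted p = 0.0456), and 1.02% of all tested genes passed as higher. In trained muscle 0 of 22 passed, beside 3.29% of all tested genes in either direction. The 7 neuronal markers with values here summed to at most 3.58 CPM in any sample, with Snap25 at most 0.333 CPM.

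Krt18, the keratin gene, varied most. The vehicle sedentary libraries had 0.387, 0.194, 0.758, 0.222 and 0.513 CPM, on 3 to 15 reads. The knockout sedentary libraries had 4.7, 12.3, 3.03, 1.91 and 5.68 CPM, with library 2 the highest and library 4 the lowest, all above the vehicle values. The vehicle trained libraries had 0.788, 3.12, 0.864, 0.537 and 1.87 CPM, with library 2 the highest. The knockout trained samples had 5.13, 2.08 and 2.42 CPM, and library 2 of the vehicle trained group lay above the lower 2 of them. The log2 change between knockout and vehicle was 3.68 with SE 0.59 in sedentary muscle, rank 5 among the rises. In trained muscle it was 1.18 with SE 0.58, rank 150, and 1.69 without vehicle trained library 2. That library held the only overlapping vehicle value, so nothing is read from the separation of the groups without it. Without knockout trained libraries 1 and 4, which count as 1 sample, it was 0.67.

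Training effects on Krt18 pointed in opposite directions in vehicle and knockout muscle, and neither passed. In vehicle muscle its mean was 1.43 ± 1.07 CPM after training and 0.415 ± 0.231 CPM without (SD, n = 5 each), or 1.73 on the log2 scale with SE 0.61 (edgeR adjusted p = 0.272). As for Lgr6, these low vehicle values belong to the rise by which the gene was picked, so this is no independent test. Without vehicle trained library 2 the log2 change was 1.23 (edgeR adjusted p = 0.396). In knockout muscle the training effect was -0.77 with SE 0.57 (edgeR adjusted p = 0.782). The interaction was -2.50 with SE 0.84 (edgeR adjusted p = 0.616), and -2.001 without that library (edgeR adjusted p = 0.344).

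**Figure D3:**
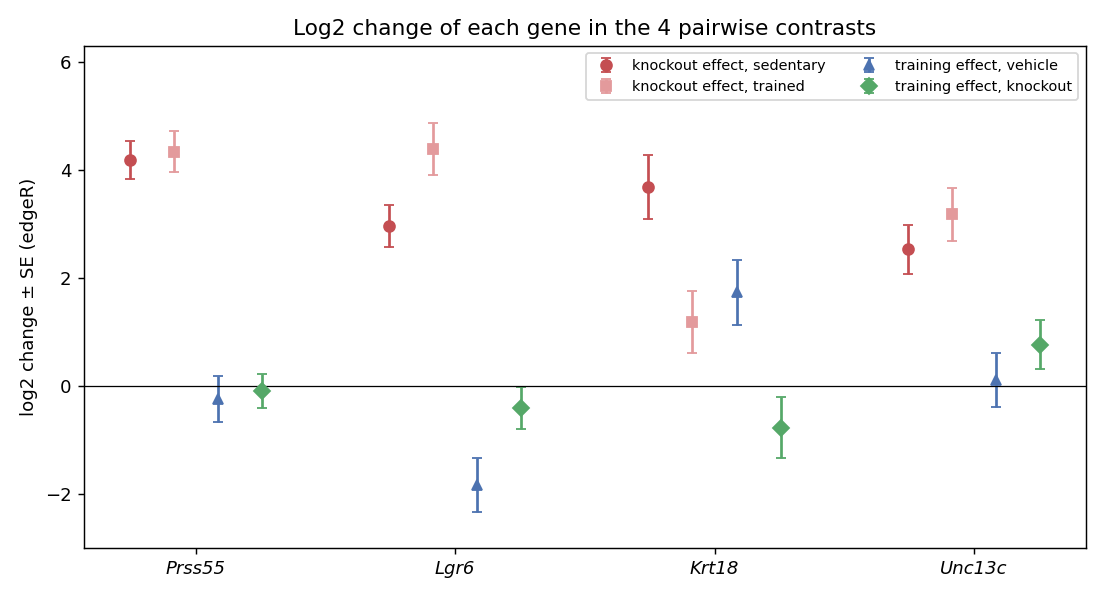
Log2 change ± SE (edgeR) of Prss55, Lgr6, Krt18 and Unc13c in the knockout contrasts within sedentary and trained muscle and the training contrasts within vehicle and knockout muscle; contrasts that use the same group share its samples. Knockout changes run from 1.18 to 4.39, training changes from -1.84 to 1.73, and none of the 8 training changes passed.

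Krt8, whose product pairs with keratin 18, had 1, 5, 0, 1 and 1 reads in the vehicle sedentary libraries and 4, 37, 6, 0 and 12 in the knockout sedentary ones. Knockout sedentary libraries 2 and 5, highest for Krt8, were also highest for Krt18. In trained muscle Krt8 had 1 to 10 reads with vehicle and 3 to 10 with knockout. Krt8 fell below the filter, and its log2 change of 2.82 with SE 0.90 in sedentary muscle did not pass with no filter (edgeR adjusted p = 0.197). Of 22 listed keratins and other intermediate filament genes besides Krt18, 12 were tested and 0 passed in either training state (edgeR), beside 2.33% of all tested genes in sedentary and 3.29% in trained muscle, with median log2 changes of -0.05 and -0.04. Eif4b, the nearest gene to the right of Krt18 and 41746 bases away, had a log2 change of -0.16 with SE 0.12 in sedentary muscle (edgeR adjusted p = 0.839). Ube2t, the nearest gene to the left of Lgr6, had -0.48 with SE 0.18 (edgeR adjusted p = 0.287), and Ptprv on its right had at most 3 reads in any library.

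Trained and sedentary vehicle samples did not overlap for 1 of the 4 genes, Lgr6, which was lower. Non-overlap was seen for 0.864% of genes tested as higher and 0.989% as lower. In knockout muscle 0 of 4 genes separated by training, beside 4.67% of genes tested as higher and 3.96% as lower. None of the 4 genes passed for training in vehicle muscle, for training in knockout muscle or for the interaction. No gene of the 14359 did in edgeR (0% in each), although 2186, 1394 and 1076 genes had an unadjusted p under 0.05. DESeq2 called 15, 198 and 26 genes in these contrasts and limma 0. Limma called none of the 4, and DESeq2 none for training in vehicle muscle. For the other contrasts DESeq2 gave the 4 genes no adjusted p. For Prss55 the training changes were -0.25 with SE 0.43 in vehicle and -0.10 with SE 0.32 in knockout muscle (edgeR adjusted p = 0.775 and 0.991). The change in vehicle muscle was 0.01 without vehicle trained library 2 (edgeR adjusted p = 0.993). The training changes of the 4 genes come from the samples on which they were picked, and a p that misses the threshold does not show that training left them alone.

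Levels can be compared between genes only per length, here CPM per kb of annotated exons. In knockout sedentary muscle Prss55 led with 6.32 ± 0.723, then came Krt18 with 3.84 ± 2.83, Lgr6 with 0.949 ± 0.414 and Unc13c with 0.601 ± 0.109 CPM per kb (SD, n = 5 each). For each pair of neighbours in this order the ranges of mean ± SD overlapped. In vehicle sedentary muscle the order was the same, with 0.337 ± 0.136, 0.289 ± 0.161, 0.12 ± 0.0226 and 0.102 ± 0.0421 CPM per kb (SD, n = 5 each).

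Within the 8 knockout samples, a set without the genotype contrast the genes were chosen on, no pair of the 4 genes passed after adjustment. With n = 8 this does not show that the genes are unrelated. The knockout levels are also the high side of the rise by which the genes were picked. The p-values here are therefore a description and no independent test. Of the 6 pairs, the strongest relation was an inverse one between Krt18 and Unc13c on log2(CPM + 1), with Pearson r = -0.689 (exact permutation p = 0.0587, 0.352 after adjustment over 6 pairs, n = 8). Spearman's rho was -0.81 (exact permutation p = 0.0218, 0.131 after adjustment, n = 8), so neither passed. Without knockout sedentary library 4, r was -0.855 (adjusted exact permutation p = 0.0155, n = 7). This was the only 1 of 16 alternatives to pass. Its p was adjusted over the 6 pairs and not over the alternatives, so nothing is read from it. Without the 2 samples farthest from the median of Krt18, r was -0.966 over 6 samples. No correlation is given over fewer than 6 samples, and so none within 1 training state. With each gene centred within its training state, a setting added after seeing the data, r was -0.659 (exact permutation p within states = 0.0278, 0.167 after adjustment, n = 8). The other 5 pairs had r between -0.261 and 0.434, with adjusted exact permutation p of 0.894 each. Without the 2 farthest samples r between Prss55 and Lgr6 went from -0.0517 to -0.884, so the near-zero value rests on those 2 samples. Centred within training state, r between Prss55 and Unc13c was 0.823 (exact permutation p = 0.169, 0.508 after adjustment, n = 8).

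**Figure D4:**
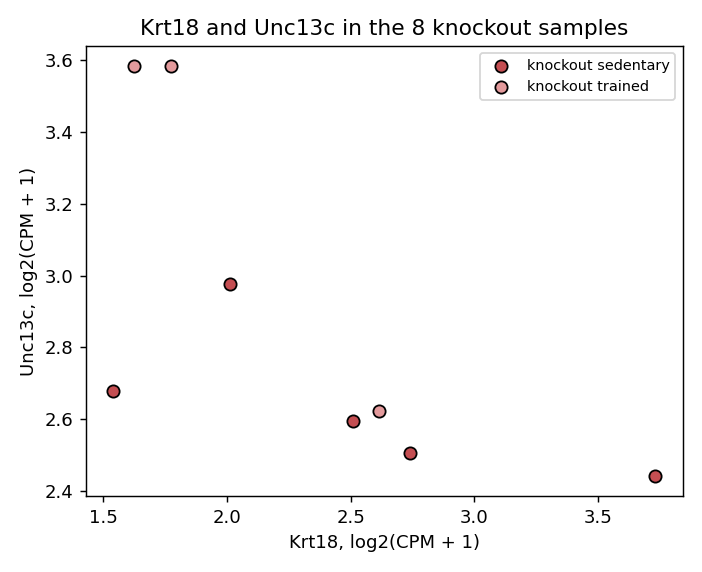
Krt18 (x axis) against Unc13c (y axis), both as log2(CPM + 1), in the 5 knockout sedentary and 3 knockout trained samples; each point is a sample. Samples with more Krt18 tended to have less Unc13c, and the relation did not pass after adjustment over 6 pairs.

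The genes whose levels most resembled each of the 4 over all 18 samples were ranked by Pearson r of log2(CPM + 1). The samples include both genotypes, so these r include the genotype difference, and they are given with no test. Prss55 was most like Ankrd23 and Gpc4 (r = 0.951 each) and Fam110b (r = 0.946). Ankrd23 encodes a titin-associated ankyrin repeat protein and Gpc4 a cell surface glypican. Lgr6 was most like Gpc4 (r = 0.942), Scube2 (r = 0.936) and Prss55 (r = 0.935). Unc13c was most like Mdp1 (r = 0.959), Ankrd23 (r = 0.952) and Prss55 (r = 0.942). Krt18 had none of these genes and was most like Sln, which encodes the calcium pump regulator sarcolipin (r = 0.929), the clock gene Clock (r = 0.896) and Slc8a1, a sodium-calcium exchanger (r = 0.893).

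Most of these genes were already above 1 CPM in vehicle sedentary muscle, unlike the gene they resembled. Scube2, at 0.72 CPM, and Prss55 were the exceptions. Fam110b and Sln were low as well, at 2.40 and 2.99 CPM. Gpc4 went from a mean of 13.5 to 36.4 CPM in sedentary muscle and from 12.2 to 32.7 CPM in trained muscle, and Sln from 2.99 to 29.5 and from 5.80 to 18.8 CPM. With a pseudocount of 0.1, 2 of the 3 genes were the same for Prss55, 0 of 3 for Lgr6, 3 of 3 for Krt18 and 2 of 3 for Unc13c.

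Among 16 tested genes known from denervated muscle, 2 passed as higher in knockout in each training state (edgeR), beside 1.02% of all tested genes in sedentary and 1.99% in trained muscle. Both encode subunits of the muscle acetylcholine receptor. Chrna1 went from 14.1 ± 2.51 to 34.01 ± 7.07 CPM in sedentary muscle (SD, n = 5 each). Its log2 changes were 1.27, SE 0.16, in sedentary and 1.90, SE 0.18, in trained muscle (edgeR adjusted p = 0.000109 and 8.22e-06). Chrnb1 had log2 changes of 1.36 with SE 0.26 and 1.24 with SE 0.29 (edgeR adjusted p = 0.00581 and 0.0232). The median of the 16 was 0.27 in sedentary and -0.20 in trained muscle. Of 19 tested core clock genes, 2 passed as higher and 6 as lower in sedentary muscle, and 1 and 5 in trained muscle (edgeR). Over all tested genes, 1.02% passed as higher and 1.31% as lower in sedentary muscle, and 1.99% and 1.3% in trained muscle. Without vehicle trained library 2, 5 denervation genes passed as higher in sedentary and 4 in trained muscle. Of the clock genes, 4 then passed as higher and 12 as lower in sedentary muscle, and 5 and 11 in trained muscle. In that setting the shares over all tested genes were also larger. They were 3.14% as higher and 3.84% as lower in sedentary muscle, and 5.01% and 3.65% in trained muscle.

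Markers of cell types in which the 4 genes are known were compared beside them. For skin and other epithelium, 8 of 10 markers had values, and their sum was 17.5 to 29.1 CPM with vehicle and 22.7 to 36.2 CPM with knockout in sedentary samples, and 19.1 to 36.7 and 20.04 to 33.5 CPM in trained ones. Most of that was Trp63, at means of 16.1 and 26.0 CPM, whose log2 change of 0.69 did not pass (edgeR adjusted p = 0.28). Krt5 and Krt14, which define basal epithelium, had means of 0.356 and 0.325 CPM with vehicle and 0.0375 each with knockout in sedentary samples. In trained samples they had 0.416 and 0.301 CPM with vehicle and 0.288 and 0.413 with knockout. For male germ cells, 4 of 9 markers had values, and they summed to 0.62 to 1.60 CPM with vehicle and 0.312 to 0.782 CPM with knockout in sedentary samples, and 0.788 to 1.45 and 0.998 to 1.15 CPM in trained ones.

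The sum over 6 satellite cell markers was higher in every knockout sample than in the vehicle samples of the same training state. It ranged from 40.9 to 50.8 CPM with vehicle and 51.3 to 63.3 CPM with knockout in sedentary samples, and from 38.1 to 47.4 and 51.5 to 54.3 CPM in trained ones. Pax7, the defining marker, had means of 5.26, 5.20, 3.39 and 5.61 CPM in the vehicle sedentary, knockout sedentary, vehicle trained and knockout trained groups. Most of the sum was Cdh15, with 15.5, 19.9, 14.4 and 17.3 CPM in the same order, and Chodl, with 14.8, 17.9, 12.8 and 17.9 CPM. Myf5 had 4.00, 4.61, 4.23 and 3.35 CPM, lower with knockout in trained muscle. Calcr and Vcam1 had higher means with knockout in both training states. The sum over 5 smooth muscle and pericyte markers was likewise higher in every knockout sample, from 424 to 484.8 against 491.9 to 611.2 CPM in sedentary and from 381.6 to 517 against 554.3 to 590.4 CPM in trained samples, most of it Rgs5. Among single genes tested, all knockout samples lay above all vehicle samples for 4.08% in sedentary and 5.31% in trained muscle. Of the 6 satellite cell markers 5 were tested, and all 5 smooth muscle and pericyte markers were. None of those tested passed singly (edgeR), and the part of these cell types in the rise of the 4 genes was not tested. Summed markers of blood, adipocytes, macrophages, Schwann cells, endothelium and fibroblasts overlapped between knockout and vehicle samples in both training states.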

How the data were processed

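RNA of 20 mouse muscle libraries was extracted with Trizol and a Qiagen column and sequenced after an Illumina library kit, as the labels say. What the authors deposited are estimated counts per gene, of which 72% are whole numbers, although they are named for another unit. STAR 2.7.8a, Partek, DESeq2 and the builds mm10 and GRCm39 are named in the submitters' processing notes without roles. The counter, annotation and strandedness are not given in the sources used here. GENCODE M21 and RefSeq tables of GRCm38 gave positions, exon lengths and promoters.

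Counts were rounded. Library pairs whose noise at 1000 to 10000 summed counts was under 1.5 times that at 10 to 100 were counted as 1 sample (2 pairs, 18 samples). The 14359 genes that reached 1 CPM in 5 or more libraries were tested with edgeR 4.0.16 (R 4.3.3), quasi-likelihood, TMM scaling, 4 group means, two-sided, Benjamini-Hochberg adjustment over all genes, threshold 0.05. DESeq2 1.42.0 and limma 3.58.1 (pseudocount 1) were alternatives. Relations between genes used log2(CPM + 1) and exact permutation tests. Planned permutation tests of the training differences are not reported, since their values helped to choose the genes. The fit was tested on simulated data.

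The 4 genes and the lists were chosen with earlier results of these data known. Also named were the neighbours of each gene, the 3 genes most like each, and at most 5 called genes per list.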

Additional observations from a re-analysis of the deposited data

Results flagged for a closer look

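Lgr6 in vehicle sedentary library 5, at 1.09 CPM, lay far from the other 4 libraries of its group, which were at 0.697 to 0.777 CPM. It was the only such value among 12 groups of 5 libraries (4 genes in 3 groups), where chance gives 0.6.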

How the results depend on the processing

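The log2 changes of the 4 genes between knockout and vehicle kept their direction under all alternatives. They ranged from 2.75 to 4.42 for Prss55, 1.97 to 3.13 for Lgr6, 2.02 to 4.05 for Krt18 and 1.74 to 2.81 for Unc13c in sedentary muscle, and from 2.71 to 4.62, 2.26 to 4.72, 0.67 to 1.69 and 2.35 to 3.52 in trained muscle, in the same order. Except for Krt18 in trained muscle, the lowest came from limma on log2(CPM + 1), where the pseudocount shrinks low genes. None of their training changes and interactions passed under an alternative that gave an adjusted p, which DESeq2 did not for training in knockout muscle and the interaction. Over all genes the counts moved. DESeq2 called 537 genes for the knockout effect in sedentary and 907 in trained muscle, 15 and 198 for training in vehicle and knockout muscle, and 26 for the interaction. Fitting only the groups compared called 1177 and 20 genes for the knockout effects in sedentary and trained muscle. With the 20 libraries as separate samples the trained knockout effect had 1225 and training in knockout muscle 49. Leaving out 1 replicate or near-identical pair gave 251 to 1002 genes for the sedentary and 177 to 1244 for the trained knockout effect, 0 to 1 and 0 to 397 for training in vehicle and knockout muscle, and 0 for the interaction. The highest knockout counts came without vehicle trained library 2, while the trained knockout effect had 299 without knockout trained library 2 and 177 without libraries 3 and 5. Training in knockout muscle had 45 genes without vehicle trained library 1, 121 without library 2 and 397 without knockout trained libraries 1 and 4. The causes were not tested.

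Same-numbered libraries of different groups had deviations correlated between -0.394 and 0.351, and 5 of 20 libraries matched their own number best, so the numbers were not taken as pairs. With the replicate number as a block and the 20 libraries as separate samples, 980 genes were called for the trained knockout effect and 336 for the sedentary one.

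The r between Krt18 and Unc13c in knockout samples ranged from -0.855 to -0.624 as single replicates were left out. The value of -0.855, without knockout sedentary library 4, was the only 1 of 16 alternatives to pass (adjusted exact permutation p = 0.0155). That p was not adjusted over the alternatives. Few reads in vehicle libraries limit every fold given here.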
